A study of Mus musculus with 18 samples.

Results

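The genes described here make up the amino acid response driven by the transcription factor ATF4 and the stress response of the endoplasmic reticulum (ER), in mouse bone marrow-derived macrophages. They are 35 genes chosen by symbol, each matched to its Ensembl gene through the GENCODE annotation of GRCm38, out of 48794 genes in the deposited count table. All 35 passed the filter on low counts, which kept 13177 genes. Marrow of male C57BL/6 mice was matured over 7 days with 50 ng/ml of recombinant human M-CSF, on which macrophages depend, and all 3 groups then spent 24 h in 10 ng/ml M-CSF. Control cells had no other cytokine. IL4_IL13 cells also had 10 ng/ml of IL-4 and of IL-13, recombinant mouse cytokines known from helminth infection and allergy. IL4_IL13_TNFa cells had both of these plus 10 ng/ml of TNFa, an inflammatory cytokine. Each group held 6 poly(A) RNA libraries, numbered 1 to 6, and the labels give neither the age of the mice nor whether the 6 came from separate animals or cultures. The p-values therefore measure only how these libraries spread, and part of that spread may be technical.

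ATF4 is made when the kinases that sense missing amino acids, unfolded ER proteins or other stresses phosphorylate the translation factor eIF2. With C/EBP partners it switches on genes for amino acid synthesis, uptake and tRNA charging. Unfolded proteins in the ER are sensed by PERK (Eif2ak3), IRE1 (Ern1) and ATF6, and the factors these release raise the ER chaperones and folding enzymes that a secreting cell needs. PERK feeds into ATF4, so the amino acid arm and the ER arm share a branch. Gene counts do not show ATF4 protein, phosphorylated eIF2, cleaved ATF6 or the spliced form of Xbp1 mRNA, and none of these was measured here. In bulk RNA, fewer cells of a type and less RNA per cell cannot be told apart.

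The promoter windows of these genes are shown first, for the response elements that some of them hold. RefSeq's promoter table (GRCm38.p6) gives the 250 bases before and 50 after each annotated start. It held 35 windows for 32 of the 35 genes, and Atf6, Slc7a5 and Manf had no entry. Both strands were searched for 4 elements, with no overlap between the motifs found in a window. The ER stress response element is CCAAT, 9 bases of any kind and CCACG. Its second form is ATTGG, 1 base and CCACG. The C/EBP-ATF response element, which ATF4 binds with a C/EBP partner, is TGATGNAA, where N is any base. The unfolded protein response element is TGACGTG. The first lines below show the ER stress response elements read along the motif, with their fixed letters in capitals and 10 bases on each side.
Hspa5, chr2:34772025-34772043: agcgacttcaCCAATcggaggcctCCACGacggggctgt
Hsp90b1, chr10:86705638-86705656: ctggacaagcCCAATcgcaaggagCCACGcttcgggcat
Hsp90b1, chr10:86705533-86705551: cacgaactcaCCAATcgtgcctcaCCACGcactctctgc
Calr, chr8:84847075-84847093: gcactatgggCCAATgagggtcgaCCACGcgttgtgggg
Canx, chr11:50325800-50325818: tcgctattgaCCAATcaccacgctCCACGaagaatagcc
Pdia6, chr12:17266491-17266509: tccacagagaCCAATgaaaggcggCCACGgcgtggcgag
Dnajc3, chr14:118937827-118937845: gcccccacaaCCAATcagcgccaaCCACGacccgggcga
Creld2, chr15:88819520-88819538: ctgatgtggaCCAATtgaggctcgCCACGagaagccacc
Herpud1, second form, chr8:94386377-94386387: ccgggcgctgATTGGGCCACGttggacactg
The matches to the C/EBP-ATF response element follow, printed along the motif, which stands in capitals.
Asns, chr6:7693225-7693232: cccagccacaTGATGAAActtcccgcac
Chac1, chr2:119351049-119351056: ctggcaggagTGATGCAAcggcagggaa
Trib3, chr2:152344039-152344046: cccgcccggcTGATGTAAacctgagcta
Pycr1, chr11:120643844-120643851: gccctgtgtaTGATGCAAtgcacaaggc
Herpud1, chr8:94386317-94386324: gggtgcgggcTGATGCAAcccgccgtgg
Coordinates are those of the element alone, on GRCm38.

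One form or the other of the ER stress response element lay in 8 of the 15 ER genes with a window and in none of the amino acid genes. Of all 27025 genes in the table, 0.181% hold either form in a window of the same length, 0.137% the first and 0.0444% the second. The C/EBP-ATF element lay in 5 of the 32 genes (15.6%), against 4.51% of all genes. Of the amino acid genes only Asns, Chac1, Trib3 and Pycr1 held it, and the remaining holder, Herpud1, is an ER gene. All other amino acid genes with a window, among them Phgdh, Psat1, Shmt2 and Mthfd2, held none of the 4 elements. Hspa5 alone of the 32 held TGACGTG, which 2.22% of all genes hold. These matches are letters in a window and no binding was measured. Elements of these responses were searched in genes listed for the same responses, so the shares describe these genes and are no test. The 250 bases before the start of Hspa5, on the forward strand, hold the unfolded protein response element and the ER stress response element, both in capitals.
Hspa5, chr2:34771840-34772089: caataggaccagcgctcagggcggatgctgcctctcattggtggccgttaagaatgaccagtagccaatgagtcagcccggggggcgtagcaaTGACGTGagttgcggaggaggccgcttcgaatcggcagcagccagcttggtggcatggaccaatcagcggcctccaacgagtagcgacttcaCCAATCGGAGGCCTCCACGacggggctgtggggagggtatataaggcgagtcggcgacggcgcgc
The same stretch of Asns, on the reverse strand, carries the C/EBP-ATF element close to its start in RefSeq. The GENCODE bounds of both genes, given below, begin further upstream. By those bounds the Asns element and the ER stress response element of Hspa5 lie inside the gene.
Asns, chr6:7693210-7693459: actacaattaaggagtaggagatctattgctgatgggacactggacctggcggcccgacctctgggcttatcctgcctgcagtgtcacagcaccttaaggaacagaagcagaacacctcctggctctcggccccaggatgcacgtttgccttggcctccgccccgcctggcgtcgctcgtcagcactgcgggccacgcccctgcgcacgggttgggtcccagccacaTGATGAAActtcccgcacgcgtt

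**Figure D1:**
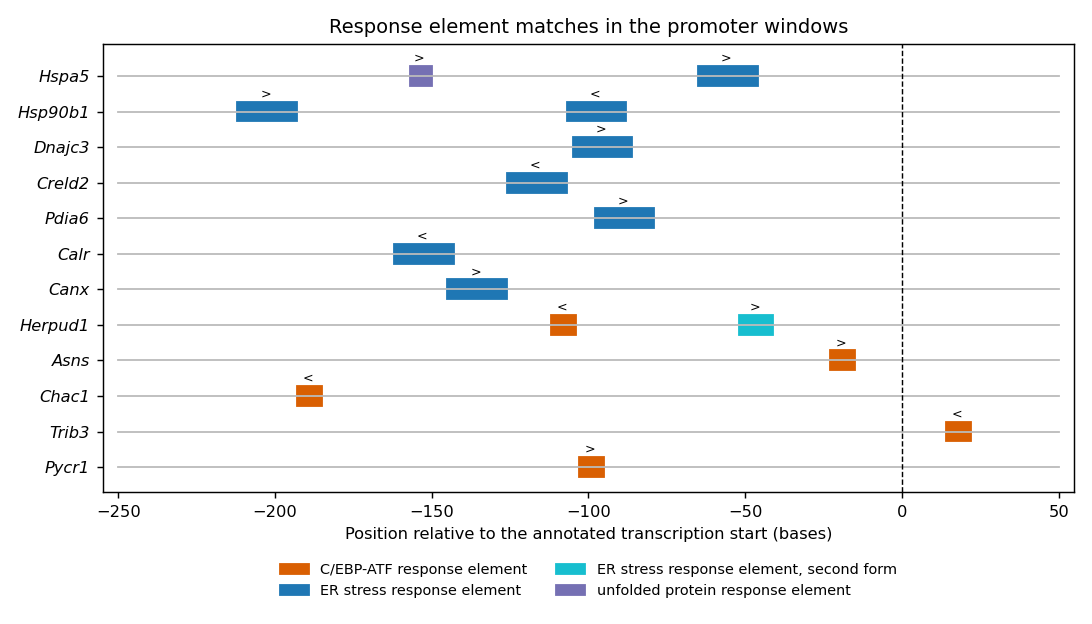
Matches to the 4 response elements in the promoter windows of the 12 genes that hold one, drawn by distance in bases from the start annotated in RefSeq (dashed line). Arrows give the strand on which the motif reads. The ER stress response elements of 8 ER genes all lie before the start, between 212 and 42 bases away, and the C/EBP-ATF element of Trib3 lies after it.

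The libraries held 14793404 to 20056125 counts. Csf1r, the receptor of M-CSF, and Lyz2 were the highest of 7 macrophage markers, and none of the 7 was at 0 in any library. Their summed level had medians of 21944 CPM (counts scaled to 1e+06 per library, on TMM-scaled library sizes) in Control, 8659 in IL4_IL13 and 8712 in IL4_IL13_TNFa. Within this list Fcgr1 had group means of 130.4, 21.8 and 0.999 CPM and Mertk 123.8, 36.3 and 13 CPM, in the same order. Control replicate 1 stood apart from the other controls. In it 1454 genes lay over 2-fold from the rest of its group. The next library had 201 such genes. Its macrophage marker sum was 13573 CPM (the other 5 controls 20370 to 24309), and its summed level of 8 stromal markers was 21.6 CPM (the others 111.7 to 686.0). The 35 genes sat a median of 0.73 log2 units above the mean of the other controls in that library, 1.63 for the amino acid arm and 0.43 for the ER arm. Values without it follow where leaving it out changed the call of 1 of the 35 genes. The summed stromal level had group means of 304.8, 259.7 and 176.3 CPM, and that of 4 endothelial markers 10.8, 8.8 and 2.83 CPM, with Control replicate 1 the highest at 22.7 CPM. The part of these marker levels in the results was not tested. Of the other marker lists, the dendritic cell sum was 1.26 to 3.47 CPM in Control and 34.0 to 36.5 CPM in IL4_IL13_TNFa, nearly all of it Zbtb46, with Xcr1 at 0 in every IL4_IL13_TNFa library, and the sums for neutrophils, B and plasma cells, T and NK cells, mast cells and erythroid cells were at or below 2.81 CPM.

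The 3 comparisons share libraries, so their values are set side by side below and not tested against each other. Tests are edgeR's quasi-likelihood tests with Benjamini-Hochberg adjustment over all 13177 genes, called at an adjusted p of 0.05, and ± after a log2 fold change is its approximate standard error (n = 6 libraries per group). With IL-4 and IL-13 alone, 24 of the 35 genes rose and 3 fell against Control. Of all genes tested 59% passed, 29.3% higher and 29.7% lower. Of these, 19 rose at least 1.5-fold (12.4% of all genes) and none fell by that much. The median log2 fold change of the 35 was 0.74, against 0.00 over all genes. Rises stood in both arms: 12 of 18 amino acid genes rose and 1 fell, and 12 of 17 ER genes rose and 2 fell. Without Control replicate 1, 26 rose and 4 fell, with a median of 0.91. In that fit 9081 of 13344 genes tested passed, 52.2% of them higher.

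Adding TNFa to IL-4 and IL-13 moved the arms in different directions. Of the 18 amino acid genes 11 fell and 1 rose (median log2 fold change -0.56), while 10 of the 17 ER genes rose and 3 fell (median 0.27). Of all genes 59.6% passed, 30.3% higher and 29.3% lower, with a median of 0.00. Scaling by library totals in place of TMM shifted the median of all genes by -0.20 and left 27.5% of the called genes higher, against 50.9% with TMM. Under that scaling 12 amino acid genes fell and 1 rose, and the ER arm split evenly, with 4 higher and 4 lower and a median of 0.07. Library totals lowered the fold changes of this comparison as a whole, so they could weaken a rise but not a fall. The fall of the amino acid arm under both scalings is thus no added support for it. Both scalings are relative to the other mRNAs of a library, so falls and rises alike are relative changes. The count of ER genes that rose depended on the scaling.

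Against Control, the cells with all 3 cytokines had 12 of 17 ER genes higher and 3 lower, with a median log2 fold change of 1.00 (of all genes 73.8% passed, 36.4% higher and 37.3% lower, with a median of -0.02). The amino acid arm stood at 5 higher and 5 lower, with a median of 0.39. This split changed both with 1 library left out and with the model. Without Control replicate 1 it became 13 higher and 2 lower, with a median of 0.82. With the replicate number as a block it was 10 higher and 4 lower. Over all genes these fits called 10371 of 13344, 50.2% of them higher, and 10185 of 13177, 49.5% of them higher. The ER arm stayed at 12 higher and 3 lower in both of these fits. Without Control replicate 1 the 12 ER genes called higher with IL-4 and IL-13 had log2 fold changes between 0.16 (Herpud1) and 1.36 (Sdf2l1), against 0.20 and 1.21 for these genes with all libraries. With library totals, which shifted the median of all genes to -0.27 and left 32.7% of called genes higher in place of 49.4%, the ER arm had 12 higher and 5 lower and the amino acid arm 3 and 5.

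**Figure D2:**
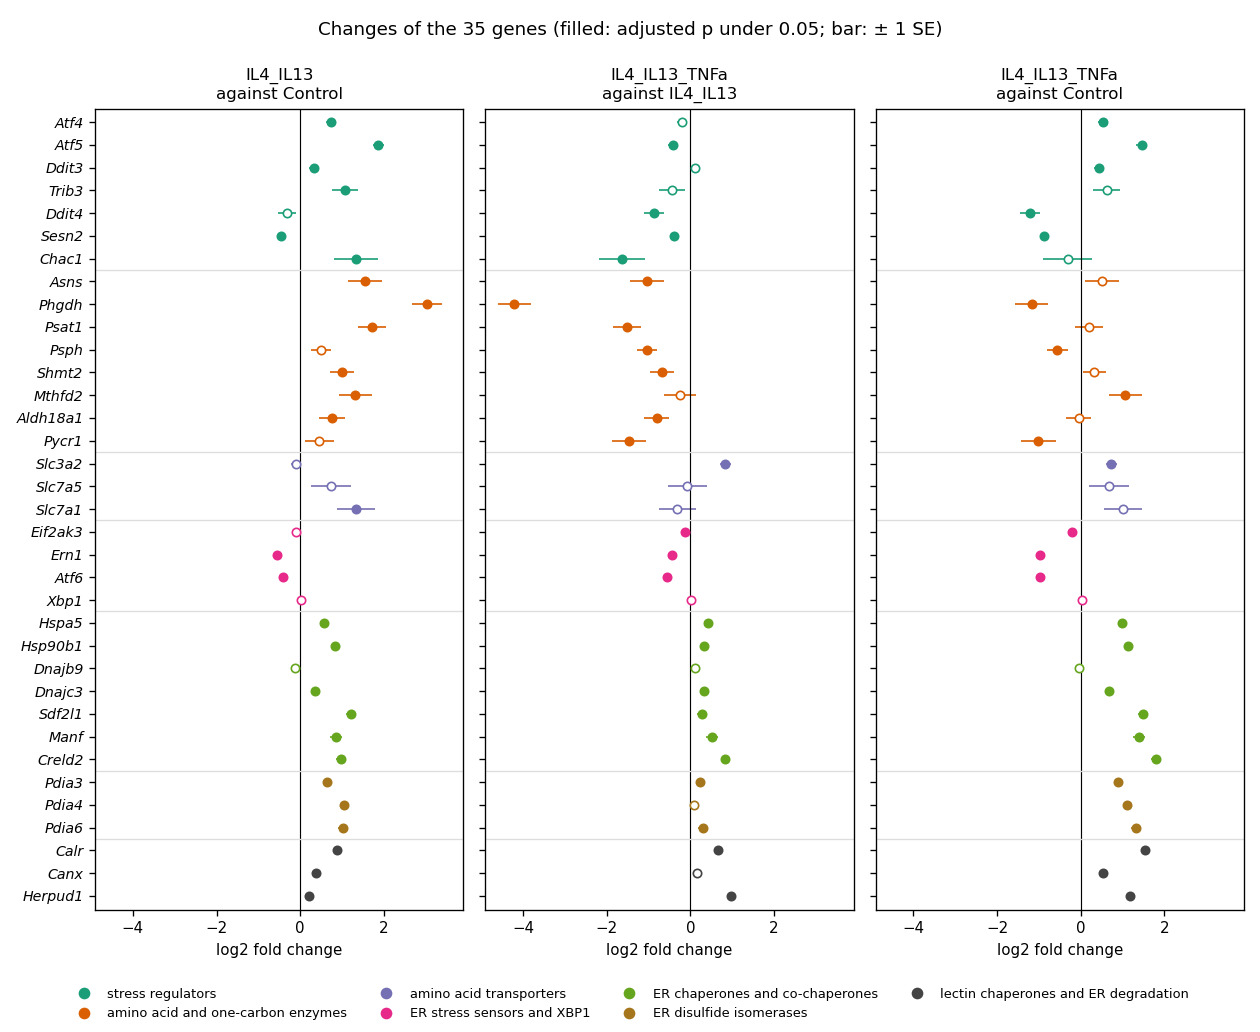
Log2 fold changes of the 35 genes in the 3 comparisons, coloured by role; filled points passed an adjusted p of 0.05 and bars show 1 standard error. The 8 amino acid and one-carbon enzymes lie right of 0 in the first panel and left of 0 in the second, while 12 of the 13 chaperone, isomerase and lectin genes lie right of 0 in all 3.

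Among the regulators, Atf4 itself rose with IL-4 and IL-13. Atf4 (ENSMUSG00000042406, chr15:80255184-80257541, forward strand) stood at 95.7, 107.3 and 183.6 CPM (lowest, median and highest library) in Control, at 174.5, 189.3 and 223.9 in IL4_IL13 and at 164.9, 169.4 and 182.3 in IL4_IL13_TNFa. The highest control is replicate 1, and the other 5 lay below every cytokine-treated library. Its log2 fold change was 0.73 ± 0.12 with IL-4 and IL-13 (adjusted p = 6.43e-05, higher in 6 of 6 numbered pairs) and 0.54 ± 0.12 with all 3 cytokines (adjusted p = 0.000691), or 0.91 and 0.72 without Control replicate 1. With TNFa added it was -0.19 ± 0.12 (adjusted p = 0.187, lower in 6 of 6 pairs). This difference passed the threshold without Control replicate 1 (-0.19, adjusted p = 0.0056) and with library totals (-0.40, adjusted p = 0.00808). It also passed in the fit on the groups compared alone and without the 3 libraries numbered 1.

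Atf5, a factor of the same family that mitochondrial and amino acid stress induce, showed the largest rise of the regulators when all libraries were used. It stood at 18.5, 20.2 and 36.0 CPM in Control, 74.2, 82.4 and 92.2 in IL4_IL13 and 59.9, 61.5 and 66.2 in IL4_IL13_TNFa, and no 2 groups overlapped. Its log2 fold change was 1.87 ± 0.13 with IL-4 and IL-13 (adjusted p = 6.95e-10), -0.41 ± 0.12 with TNFa added (adjusted p = 0.00743) and 1.46 ± 0.13 with all 3 (adjusted p = 6.53e-09). Both rises were larger without Control replicate 1, at 2.06 and 1.65. Atf5 shares 82 exon bases with Il4i1 and with Nup62 on the opposite strand, and the strand setting of the counting is not given in the sources used here. Il4i1 stood at 2.21 to 4.52 CPM in Control, 133.7 to 400.2 in IL4_IL13 and 806.5 to 995.4 in IL4_IL13_TNFa. Nup62 rose by 1.04 ± 0.16 with IL-4 and IL-13 (adjusted p = 1.78e-05) and by 0.91 ± 0.16 with all 3 cytokines (adjusted p = 3.45e-05). With TNFa added Nup62 was at -0.12 ± 0.15 (adjusted p = 0.505). Its controls stood at 49.8, 56.5 and 115.9 CPM, the highest being replicate 1, as for Atf5. Whether reads of either gene entered the Atf5 counts was not tested.

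Ddit3 encodes CHOP, the factor tied to cell death under lasting ER stress, and its change was small. Its libraries stood at 11.1, 17.8 and 20.9 CPM in Control, 17.9, 20.6 and 25.2 in IL4_IL13 and 20.5, 22.5 and 26.7 in IL4_IL13_TNFa, with overlap throughout. The log2 fold changes were 0.34 ± 0.12 (adjusted p = 0.0217), 0.10 ± 0.12 (adjusted p = 0.496) and 0.44 ± 0.12 (adjusted p = 0.00309), in the order IL-4 and IL-13, TNFa added, all 3. The first call was lost without IL4_IL13 replicate 5 (0.29), and the last with library totals (0.19, adjusted p = 0.157). Ddit3 shares 68 exon bases with Mars on the opposite strand. Mars changed by 0.66 ± 0.20 (adjusted p = 0.00917), -0.14 ± 0.20 (adjusted p = 0.556) and 0.51 ± 0.20 (adjusted p = 0.0276) in the same order. In Control replicate 1 Mars was the highest control (112.5 CPM) and Ddit3 the lowest (11.1 CPM). Whether reads of Mars entered the Ddit3 counts was not tested.

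Trib3 and Chac1 are sensitive ATF4 and CHOP targets: Trib3 is a pseudokinase that restrains the response, and CHAC1 breaks down glutathione. Trib3 stood at 1.97, 2.46 and 7.93 CPM in Control, 4.03, 6.45 and 11.6 in IL4_IL13 and 4.24, 4.87 and 5.95 in IL4_IL13_TNFa. It rose with IL-4 and IL-13 (1.06 ± 0.31, adjusted p = 0.00733, and 1.56 without Control replicate 1), and only Control replicate 1 overlapped the treated libraries. Against Control, its difference with all 3 cytokines of 0.62 ± 0.32 missed the threshold (adjusted p = 0.0883) but passed it without Control replicate 1 (1.11, adjusted p = 0.000111) and with the replicate block (0.74, adjusted p = 0.00862). With TNFa added it was -0.44 ± 0.31 (adjusted p = 0.225), past the threshold only without Control replicate 1 (-0.45, adjusted p = 0.0425).

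Chac1 was scarce, at 0.165, 0.454 and 3.62 CPM in Control, 1.39, 2.09 and 4.13 in IL4_IL13 and 0.557, 0.659 and 1.19 in IL4_IL13_TNFa. Every IL4_IL13_TNFa library lay below every IL4_IL13 library, and the log2 fold change for added TNFa was -1.64 ± 0.55 (adjusted p = 0.0161). The rise with IL-4 and IL-13 was 1.33 ± 0.52 (adjusted p = 0.0365). It was 2.54 without Control replicate 1, and it missed the threshold when any other control, IL4_IL13 replicate 1 or IL4_IL13 replicate 4 was left out (1.11 to 1.26). The difference with all 3 cytokines was -0.31 ± 0.59 (adjusted p = 0.652), and 0.90 without Control replicate 1 (adjusted p = 0.0437).

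Sesn2 and Ddit4 encode Sestrin 2 and REDD1, stress-induced inhibitors of the growth kinase mTORC1, and neither rose in any comparison. Sesn2 stood at 32.7, 41.2 and 43.5 CPM in Control, 24.9, 28.0 and 33.8 in IL4_IL13 and 19.1, 22.3 and 24.7 in IL4_IL13_TNFa. It fell at each step, by 0.47 ± 0.09 with IL-4 and IL-13 (adjusted p = 0.000139), by 0.40 ± 0.09 with TNFa added (adjusted p = 0.000693) and by 0.87 ± 0.09 with all 3 (adjusted p = 4.2e-08). Ddit4 stood at 3.49, 4.13 and 5.48 CPM in Control, 1.92, 3.79 and 4.85 in IL4_IL13 and 1.26, 1.93 and 2.81 in IL4_IL13_TNFa. It fell with TNFa added (-0.87 ± 0.24, adjusted p = 0.0044) and with all 3 against Control (-1.20 ± 0.24, adjusted p = 0.00018). Every IL4_IL13_TNFa library lay below every control, as for Sesn2, where 25.1% of all genes lay lower without overlap. With IL-4 and IL-13 alone its difference was -0.32 ± 0.22 (adjusted p = 0.222), and -0.35 with the replicate block (adjusted p = 0.0474).

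Most of the 8 enzymes of amino acid synthesis and one-carbon metabolism rose with IL-4 and IL-13 and fell with TNFa added. Against Control 6 rose with IL-4 and IL-13 and none fell (median log2 fold change 1.16), and 1 of them, Phgdh, did so with no overlap (12.5% of all genes lay higher without overlap). With TNFa added 7 fell and none rose, with a median of -1.04, and 4 of them did not overlap between the groups (21.6% of all genes lay lower without overlap). Of all genes 29.3% were called higher with IL-4 and IL-13, and 29.3% lower with TNFa added. Against Control, cells with all 3 cytokines had 1 enzyme higher and 3 lower with all libraries, but 5 higher and none lower without Control replicate 1. Over all genes the fit without it called 10371 of 13344, 50.2% of them higher. In Control replicate 1 each of the 8 enzymes was far above the other controls, within the range of the IL4_IL13 libraries for 7 of them.

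Phgdh, the first enzyme of serine synthesis, moved the most of the 35 genes (ENSMUSG00000053398, chr3:98313170-98339990, reverse strand). It stood at 2.87, 3.70 and 15.6 CPM in Control, 30.2, 43.6 and 68.0 in IL4_IL13 and 1.74, 2.29 and 3.41 in IL4_IL13_TNFa. The IL4_IL13 libraries lay above all 12 others. The log2 fold change was 3.04 ± 0.36 with IL-4 and IL-13 (8.22-fold higher, adjusted p = 1.11e-06) and -4.21 ± 0.40 with TNFa added (18.6-fold lower, adjusted p = 3.69e-08). Without Control replicate 1 the rise was 3.71. Against Control, all 3 cytokines gave -1.17 ± 0.40 (adjusted p = 0.0142), which became -0.50 without Control replicate 1 (adjusted p = 0.0723).

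Psat1 and Psph encode the next enzymes of serine synthesis. Psat1 stood at 12.2, 18.8 and 72.1 CPM in Control, 60.7, 78.8 and 122.0 in IL4_IL13 and 27.5, 28.3 and 33.8 in IL4_IL13_TNFa. It rose by 1.71 ± 0.34 with IL-4 and IL-13 (adjusted p = 0.000381; 2.36 without Control replicate 1), and TNFa lowered it with no overlap (-1.51 ± 0.34, adjusted p = 0.000952). Against Control it was 0.20 ± 0.34 with all 3 cytokines (adjusted p = 0.608), or 0.85 without Control replicate 1 (adjusted p = 0.000295). Psph stood at 5.48, 7.61 and 17.3 CPM in Control, 8.39, 12.5 and 18.4 in IL4_IL13 and 4.82, 6.02 and 7.37 in IL4_IL13_TNFa. Its fall with TNFa was -1.04 ± 0.24 (adjusted p = 0.00119, no overlap). The rise with IL-4 and IL-13 missed the threshold (0.49 ± 0.24, adjusted p = 0.0853) and passed it without Control replicate 1 (0.80, adjusted p = 0.000346), without IL4_IL13 replicate 5 (0.58) and with the replicate block (0.52, adjusted p = 0.0294). Psph with all 3 cytokines was at -0.56 ± 0.25 (adjusted p = 0.0485), a call lost with the replicate block (-0.47, adjusted p = 0.0546) and without Control replicate 1 (-0.25). It was also lost when any 1 of 11 other libraries was left out (-0.59 to -0.50). Psph shares 452 exon bases with Cct6a on the opposite strand. Cct6a rose by 0.57 ± 0.14 with IL-4 and IL-13 (adjusted p = 0.00234) and by 0.49 ± 0.14 with TNFa added (adjusted p = 0.00627). With all 3 cytokines it rose by 1.06 ± 0.14 (adjusted p = 2.43e-06).

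Asns, asparagine synthetase, is a classical ATF4 target (ENSMUSG00000029752, chr6:7675169-7693254). It stood at 9.47, 12 and 68.7 CPM in Control, 40.0, 56.9 and 103.8 in IL4_IL13 and 27.8, 30.5 and 33.5 in IL4_IL13_TNFa. The groups with and without TNFa did not overlap, and 5 of the 6 controls, all but replicate 1, lay below both. The rise with IL-4 and IL-13 was 1.55 ± 0.41 (adjusted p = 0.00369), and 2.42 without Control replicate 1. The difference for added TNFa was -1.04 ± 0.41 (adjusted p = 0.0352), a call lost when 1 of 7 treated libraries was left out: IL4_IL13 replicate 1 or 2, or IL4_IL13_TNFa replicate 1, 2, 3, 4 or 5 (-1.05 to -0.83). With all 3 cytokines it was 0.51 ± 0.41 (adjusted p = 0.268), against 1.38 without Control replicate 1 (adjusted p = 1.01e-05) and 0.88 with the replicate block (adjusted p = 0.0146).

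Shmt2 and Mthfd2 carry one-carbon units through mitochondria. Shmt2 stood at 31.8, 33.5 and 107.4 CPM in Control, 59.1, 88.4 and 144.2 in IL4_IL13 and 50.2, 58.2 and 64.0 in IL4_IL13_TNFa. It rose by 1.00 ± 0.28 with IL-4 and IL-13 (adjusted p = 0.00528, and 1.46 without Control replicate 1), and with TNFa added it stood at -0.68 ± 0.28 (adjusted p = 0.0445). That second call was lost when 1 of 10 treated libraries was left out, all but IL4_IL13 replicates 3 and 5 (-0.71 to -0.50). Its 0.33 ± 0.28 with all 3 cytokines (adjusted p = 0.301) became 0.79 without Control replicate 1 (adjusted p = 0.000392) and 0.50 with the replicate block (adjusted p = 0.0456).

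Mthfd2 was the enzyme that did not fall past the threshold with TNFa. It stood at 16.5, 18.7 and 110.4 CPM in Control, 61.3, 86.4 and 121.8 in IL4_IL13 and 67.5, 71.3 and 80.7 in IL4_IL13_TNFa. The log2 fold changes were 1.32 ± 0.39 with IL-4 and IL-13 (adjusted p = 0.00805), -0.25 ± 0.39 with TNFa added (adjusted p = 0.599) and 1.07 ± 0.39 with all 3 (adjusted p = 0.0203). Without Control replicate 1 the rises were 2.18 and 1.92. With library totals the last was 0.83 and missed the threshold.

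Aldh18a1 and Pycr1 make proline from glutamate. Aldh18a1 stood at 15.5, 17.2 and 61.3 CPM in Control, 25.6, 38.6 and 63.2 in IL4_IL13 and 21, 23.1 and 26.4 in IL4_IL13_TNFa. Its rise with IL-4 and IL-13 was 0.76 ± 0.30 (adjusted p = 0.0369), 1.3 without Control replicate 1, and missed the threshold when any other control or IL4_IL13 replicate 1, 2 or 4 was left out (0.60 to 0.77). The fall with TNFa was -0.81 ± 0.30 (adjusted p = 0.0283), lost without IL4_IL13 replicate 1 (-0.64) and without IL4_IL13_TNFa replicate 1 or 5 (-0.78 each). All 3 cytokines gave -0.05 ± 0.30 (adjusted p = 0.897), or 0.49 without Control replicate 1 (adjusted p = 0.0115). Pycr1 had the lowest level per length of the 35 genes in each group, at 0.210, 0.288 and 0.104 CPM per kilobase of exon (RPKM, group means) in the order Control, IL4_IL13 and IL4_IL13_TNFa. It stood at 0.580, 0.723 and 1.56 CPM in Control, 0.198, 1.19 and 1.78 in IL4_IL13 and 0.205, 0.415 and 0.640 in IL4_IL13_TNFa. It fell with TNFa (-1.47 ± 0.40, adjusted p = 0.00391), and IL-4 and IL-13 gave 0.46 ± 0.35 (adjusted p = 0.266; 0.67 and past the threshold without IL4_IL13 replicate 5). Its call against Control with all 3 cytokines (-1.01 ± 0.41, adjusted p = 0.0353) was lost without Control replicate 1 (-0.72) and without IL4_IL13_TNFa replicate 1, 4 or 5 (-0.95 to -0.87).

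**Figure D3:**
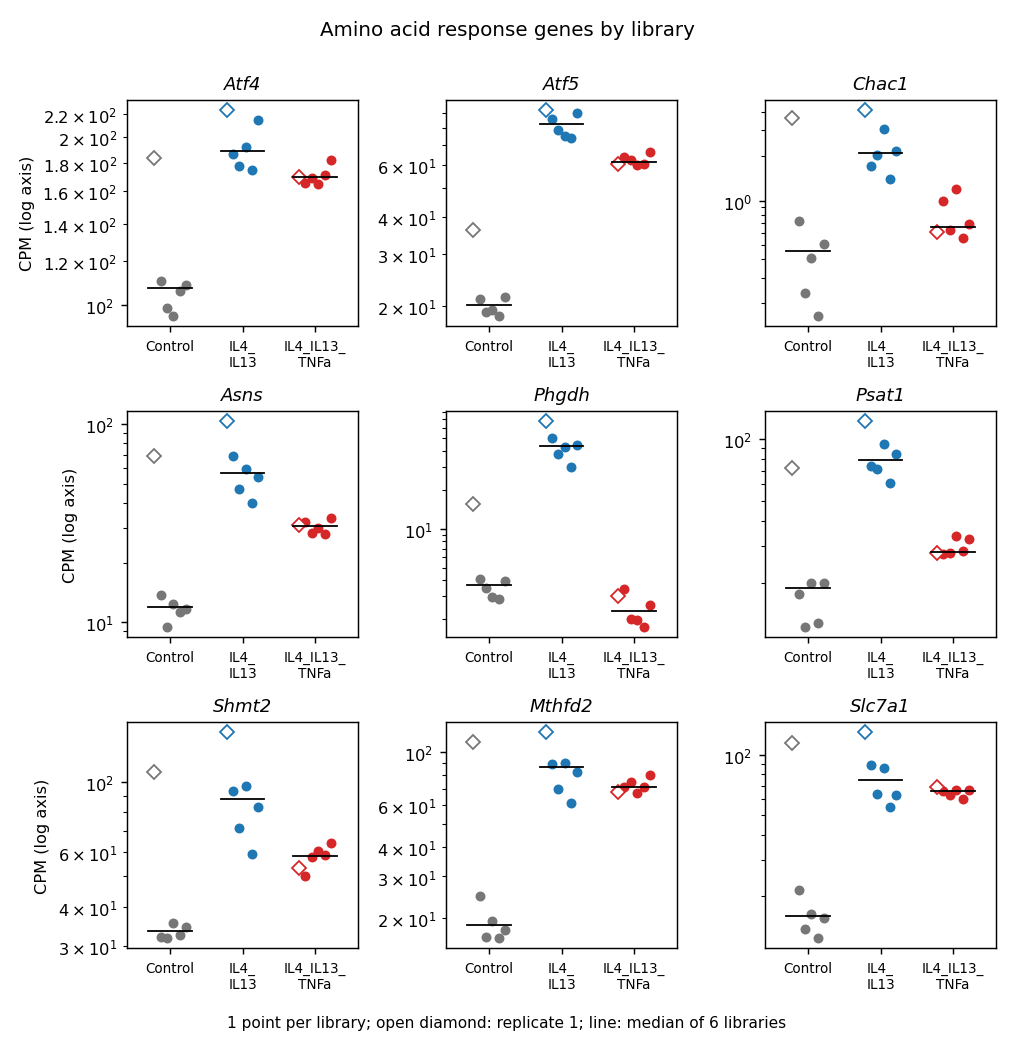
Level of 9 amino acid response genes in each library, in CPM on a log axis; points are libraries, open diamonds replicate 1 and lines the group median. Control replicate 1 lies above the other 5 controls in all 9 genes, and Phgdh shows the IL4_IL13 libraries (30.2 to 68.0 CPM) above both other groups (1.74 to 15.6 CPM).

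The enzymes also varied together among libraries of a group. Deviations from the group mean correlated positively in all 28 pairs of enzymes over 18 libraries, with a median Pearson r of 0.887 (0.744 without Control replicate 1 and 0.61 without the 3 libraries numbered 1). The 3 disulfide isomerases had medians of 0.922, 0.773 and 0.833 in the same order, and the 4 sensor genes 0.16, 0.202 and 0.29. The 7 chaperones and co-chaperones had 0.872, 0.319 and 0.309, and the 3 transporters 0.891, 0.593 and 0.251. The 7 regulators had -0.168, 0.23 and 0.102, and the 3 lectin chaperone and degradation genes -0.675, -0.562 and -0.726. Pairs with 1 gene from each arm had 0.658, 0.244 and 0.168, so varying together was not particular to the enzymes. These are descriptions: all genes of a library share its RNA, depth and scaling.

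The 3 transporters differed among themselves. Slc3a2 is the heavy chain shared by several amino acid exchangers, and Slc7a5 (LAT1) is a light chain that pairs with it to bring in large neutral amino acids. Slc3a2 stood at 227.9, 232.0 and 394.4 CPM in Control, 216.5, 228.6 and 325.8 in IL4_IL13 and 391.0, 430.6 and 498.7 in IL4_IL13_TNFa. It did not pass with IL-4 and IL-13 (-0.10 ± 0.13, adjusted p = 0.524). With TNFa added it rose by 0.83 ± 0.13 (adjusted p = 2.07e-05) with no overlap, and with all 3 by 0.73 ± 0.13 (adjusted p = 5.33e-05). It was the only one of the 18 amino acid genes to rise with TNFa.

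Slc7a5 stood at 4.32, 7.20 and 46.1 CPM in Control, 12.5, 21.2 and 42.8 in IL4_IL13 and 18, 20.7 and 25.6 in IL4_IL13_TNFa. It passed no test with all libraries (0.74 ± 0.48, -0.07 ± 0.47 and 0.67 ± 0.48, adjusted p = 0.19, 0.904 and 0.218). Without Control replicate 1, whose level was the highest of all 18, it rose by 1.75 with IL-4 and IL-13 (adjusted p = 5.38e-05) and by 1.67 with all 3 (adjusted p = 6.63e-05). With the replicate block these were 1.03 (adjusted p = 0.0177) and 1.13 (adjusted p = 0.00961). Slc7a1, the cationic transporter that brings in arginine and lysine, had values close to those of the enzyme Mthfd2. It stood at 12.3, 15.8 and 114.6 CPM in Control, 55.2, 74.9 and 129.5 in IL4_IL13 and 60.1, 66.4 and 69.5 in IL4_IL13_TNFa. It rose with IL-4 and IL-13 by 1.33 ± 0.46 (adjusted p = 0.0187), or 2.37 without Control replicate 1. Its 1.01 ± 0.46 with all 3 cytokines missed the threshold (adjusted p = 0.0528) and passed it at 2.05 without that library (adjusted p = 6.39e-08) and at 1.51 with the replicate block (adjusted p = 0.00103). It also passed with the stricter filter, with DESeq2, with limma voom and without the 3 libraries numbered 1. TNFa added gave -0.31 ± 0.45 (adjusted p = 0.567).

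None of the 3 stress sensor genes or Xbp1 rose in any comparison. Of these 4 genes 2 fell with IL-4 and IL-13, 3 with TNFa added and 3 with all 3 cytokines. Of all genes 29.7%, 29.3% and 37.3% were called lower in the same order, so counts among 4 genes say little. Ern1 encodes IRE1, the kinase and nuclease that splices Xbp1 mRNA. It stood at 87.7, 120.8 and 128.4 CPM in Control, 68.9, 79.7 and 85.1 in IL4_IL13 and 53.5, 57.7 and 65.3 in IL4_IL13_TNFa. Its log2 fold change was -0.56 ± 0.08 with IL-4 and IL-13 (adjusted p = 8.9e-06), -0.43 ± 0.08 with TNFa added (adjusted p = 0.000139) and -0.98 ± 0.08 with all 3 (adjusted p = 2.05e-09). Atf6 (ENSMUSG00000026663, chr1:170704674-170867771, reverse strand), whose membrane-held protein is cut to free a chaperone-inducing factor, stood at 177.0, 189.6 and 230.9 CPM in Control, 129.9, 149.0 and 153.8 in IL4_IL13 and 92.2, 99.0 and 105.0 in IL4_IL13_TNFa. It changed by -0.42 ± 0.06 (adjusted p = 1.41e-05), -0.57 ± 0.06 (adjusted p = 2.17e-07) and -0.98 ± 0.06 (adjusted p = 4.93e-11) in the same order. No 2 groups overlapped for either gene, and every numbered pair fell in every comparison. Of all genes 14.2%, 21.6% and 25.1% lay lower without overlap in the same order of comparisons.

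Eif2ak3, the gene of PERK, moved least of the 3 sensors. It shares 485 exon bases with Gm43292 on the opposite strand. It stood at 52.1, 55 and 56.2 CPM in Control, 47.1, 52.1 and 55.5 in IL4_IL13 and 43.9, 48.0 and 49.3 in IL4_IL13_TNFa. It was lower by 0.21 ± 0.05 with all 3 cytokines (log2 fold change -0.21, adjusted p = 0.000447). With TNFa added it was -0.12 ± 0.05 (adjusted p = 0.0297), a call lost without replicate 3, 4 or 5 of IL4_IL13 or replicate 3 or 5 of IL4_IL13_TNFa (-0.11 to -0.10). IL-4 and IL-13 gave -0.09 ± 0.04 (adjusted p = 0.105), a call with library totals (-0.13) and with the stricter filter (-0.11). Xbp1, the factor that IRE1 activates by splicing, stood at 183.3, 193.7 and 198.0 CPM in Control, 176.2, 192.8 and 206.0 in IL4_IL13 and 184.3, 195.3 and 203.4 in IL4_IL13_TNFa. Its log2 fold changes of 0.01, 0.02 and 0.03 (each ± 0.04) did not pass, with adjusted p = 0.895, 0.699 and 0.566. With library totals the last 2 turned to -0.19 (adjusted p = 0.000755) and -0.22 (adjusted p = 9.39e-05), where the median of all genes shifted by -0.20 and -0.27.

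**Figure D4:**
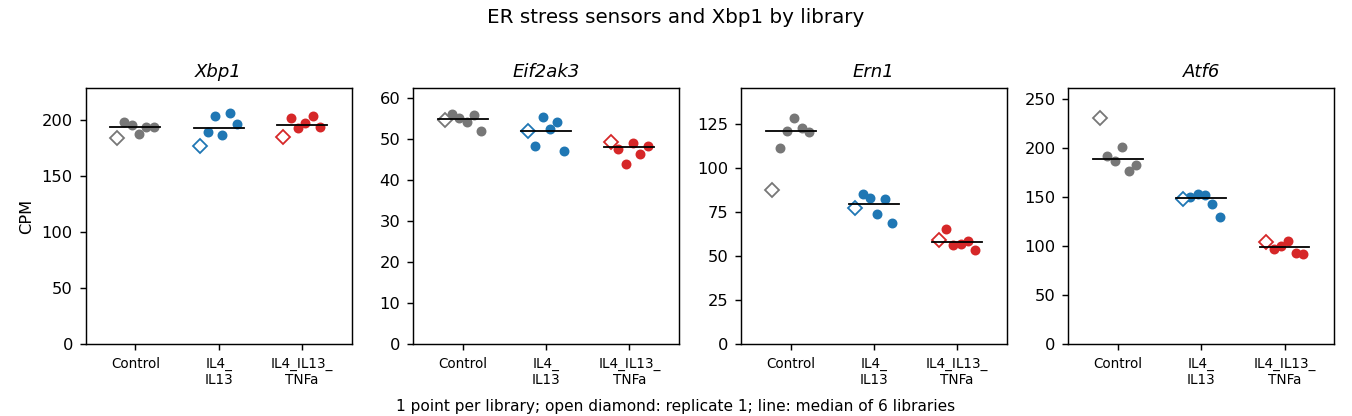
Level of Xbp1 and the 3 ER stress sensor genes in each library, in CPM from 0; points are libraries, open diamonds replicate 1 and lines the group median. Ern1 and Atf6 step down from Control through IL4_IL13 to IL4_IL13_TNFa with no overlap between groups, and Xbp1 stays between 176.2 and 206.0 CPM in all 18 libraries.

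Of the 7 ER chaperones and co-chaperones, the same 6 rose in each comparison, all but Dnajb9. The median log2 fold change of the 7 was 0.82 with IL-4 and IL-13, 0.33 with TNFa added and 1.13 with all 3. Of all genes 29.3%, 30.3% and 36.4% were called higher in that order. With TNFa added all 6 lay above the IL4_IL13 libraries with no overlap (23.3% of all genes lay higher without overlap). Under library totals 2 of these 6 calls for added TNFa remained, Hspa5 (0.21, adjusted p = 0.0107) and Creld2 (0.62, adjusted p = 4.96e-05). The other 4 were 0.11 for Hsp90b1, 0.12 for Dnajc3, 0.07 for Sdf2l1 and 0.32 for Manf.

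Hspa5 encodes BiP, the central Hsp70 chaperone of the ER that also holds the sensors inactive (ENSMUSG00000026864, chr2:34771970-34777547). It stood at 652.9, 675.5 and 913.2 CPM in Control, 1023, 1060 and 1176 in IL4_IL13 and 1378, 1445 and 1467 in IL4_IL13_TNFa. It rose by 0.58 ± 0.07 (adjusted p = 1.31e-06), 0.42 ± 0.07 (adjusted p = 3.82e-05) and 1.00 ± 0.07 (adjusted p = 2.53e-10) in the order IL-4 and IL-13, TNFa added, all 3. No 2 groups overlapped, so the order held with Control replicate 1 included. Hsp90b1, the gene of the ER Hsp90 chaperone GRP94, stood at 626.7, 665.5 and 933.0 CPM, then 1198, 1225 and 1315, then 1504, 1551 and 1583 in the same group order. Its log2 fold changes were 0.82 ± 0.07 (adjusted p = 3.14e-08), 0.32 ± 0.07 (adjusted p = 0.00114) and 1.13 ± 0.07 (adjusted p = 9.76e-11). Both genes hold the ER stress response element shown above, Hsp90b1 in 2 copies.

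Creld2, an ER protein with isomerase activity that ER stress induces, gained the most of the chaperone group with all 3 cytokines. It stood at 24.6, 27.0 and 44.6 CPM in Control, 53.6, 58.1 and 62.8 in IL4_IL13 and 97.7, 102.4 and 111.9 in IL4_IL13_TNFa. The log2 fold changes were 0.97 ± 0.11 (adjusted p = 5.8e-07), 0.83 ± 0.11 (adjusted p = 2.33e-06) and 1.80 ± 0.11 (adjusted p = 3.86e-11). Sdf2l1, a partner of ER Hsp40 proteins, stood at 53.2, 57.1 and 92.9 CPM in Control, 130.2, 142.0 and 162.0 in IL4_IL13 and 162.1, 175.6 and 193.9 in IL4_IL13_TNFa. It rose by 1.21 ± 0.11 with IL-4 and IL-13 (adjusted p = 2.81e-08) and by 1.48 ± 0.11 with all 3 (adjusted p = 5.43e-10). Its 0.27 ± 0.11 with TNFa added (adjusted p = 0.0349) missed the threshold when 1 of 8 treated libraries was left out: IL4_IL13 replicates 1 to 4 or IL4_IL13_TNFa replicates 3 to 6 (0.24 to 0.28).

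Manf, a secreted ER stress protein, stood at 37.9, 41.1 and 83.9 CPM in Control, 80.5, 83.5 and 96.6 in IL4_IL13 and 115.9, 123.7 and 137.2 in IL4_IL13_TNFa. Control replicate 1 was the only control to reach the IL4_IL13 range. Its log2 fold changes were 0.86 ± 0.15 (adjusted p = 0.000114), 0.52 ± 0.15 (adjusted p = 0.00597) and 1.39 ± 0.15 (adjusted p = 2.03e-07). Dnajc3, the co-chaperone P58IPK that also inhibits PERK, stood at 106.0, 109.2 and 153.0 CPM, then 139.3, 145.2 and 163.7, then 177.2, 187.3 and 189.4. It rose by 0.36 ± 0.08 (adjusted p = 0.000596), 0.33 ± 0.08 (adjusted p = 0.00105) and 0.68 ± 0.08 (adjusted p = 1.68e-07). Dnajb9 encodes ERdj4, a co-chaperone that spliced XBP1 is known to induce. Its libraries lay between 29.7 and 39.8 CPM in all groups, and its log2 fold changes of -0.12 ± 0.06, 0.10 ± 0.06 and -0.03 ± 0.06 did not pass (adjusted p = 0.0714, 0.152 and 0.698). The first became a call when Control replicate 1 (-0.16, adjusted p = 0.00788) or IL4_IL13 replicate 3 (-0.15) was left out, with the stricter filter (-0.15) and with library totals (-0.17). With library totals the third was -0.28 and a call (adjusted p = 0.000328).

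The 3 protein disulfide isomerases, which form and reshuffle disulfide bonds, all rose with IL-4 and IL-13 with no overlap (12.5% of all genes lay higher without overlap). Pdia4 stood at 94.0, 99.9 and 140.3 CPM in Control, 199.2, 211.0 and 254.3 in IL4_IL13 and 220.1, 228.3 and 245.1 in IL4_IL13_TNFa. Its rise of 1.05 ± 0.08 (adjusted p = 5.69e-09) came with IL-4 and IL-13, and added TNFa gave 0.08 ± 0.08 (adjusted p = 0.45), or 0.14 without the 3 libraries numbered 1 (adjusted p = 0.00917). Pdia6 stood at 117.0, 123.4 and 218.4 CPM, then 267.1, 285.5 and 309.5, then 339.2, 347.9 and 375.3. It rose by 1.03 ± 0.12 (adjusted p = 7.34e-07) and by 0.29 ± 0.12 (adjusted p = 0.0382). The call for added TNFa was lost when IL4_IL13 replicates 2 to 5 or IL4_IL13_TNFa replicates 1 or 3 to 6 were left out singly (0.27 to 0.30), and with library totals (0.09). Pdia3, which works with the lectin chaperones on glycoproteins, stood at 450.6, 476.3 and 639.2 CPM, then 745.1, 789.9 and 835.1, then 915.1, 930.8 and 982.6. Its log2 fold changes were 0.65 ± 0.07 (adjusted p = 1.7e-07) and 0.23 ± 0.07 (adjusted p = 0.00569), the second 0.03 with library totals. With all 3 cytokines against Control the rises were 0.89 for Pdia3, 1.12 for Pdia4 and 1.33 for Pdia6 (adjusted p = 8.38e-10, 6.52e-10 and 9.61e-09).

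Calr encodes calreticulin, the soluble lectin chaperone, and had the highest level per length of the 35 genes in each group, at 278.5 ± 49.0 RPKM in Control (SD, n = 6) and means of 509.0 in IL4_IL13 and 805.2 in IL4_IL13_TNFa. In CPM it stood at 710.7, 744.2 and 1078 in Control, 1416, 1455 and 1533 in IL4_IL13 and 2267, 2312 and 2374 in IL4_IL13_TNFa. It rose by 0.87 ± 0.08 (adjusted p = 3.51e-08), 0.66 ± 0.08 (adjusted p = 8.01e-07) and 1.53 ± 0.08 (adjusted p = 3.63e-12), with no overlap between any 2 groups, and by 0.46 with TNFa added under library totals (adjusted p = 5.09e-05). Canx, its membrane-bound relative calnexin, stood at 470.8, 500.0 and 666.4 CPM, then 634.6, 676.2 and 754.1, then 724.3, 756.2 and 789.9. It rose by 0.38 ± 0.07 with IL-4 and IL-13 (adjusted p = 0.000173) and 0.53 ± 0.07 with all 3 (adjusted p = 1.69e-06). The 0.15 ± 0.07 with TNFa added (adjusted p = 0.0675) passed with the replicate block (0.16, adjusted p = 0.0108), without Control replicate 1 (0.15) and without IL4_IL13 replicate 1 (0.19).

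Herpud1, which helps to clear misfolded ER proteins, differed from the chaperones in when it rose (ENSMUSG00000031770, chr8:94386438-94395377, forward strand). It stood at 37.9, 44.8 and 49.2 CPM in Control, 47.1, 49.3 and 55.6 in IL4_IL13 and 87.9, 100.2 and 103.7 in IL4_IL13_TNFa. IL-4 and IL-13 gave 0.20 ± 0.06 (adjusted p = 0.011), TNFa added 0.98 ± 0.06 (adjusted p = 1.18e-10) and all 3 gave 1.17 ± 0.06 (adjusted p = 3.98e-12). With library totals the rise with TNFa was 0.77 (adjusted p = 3.14e-09). Its promoter window is the one of the 32 that holds both a C/EBP-ATF element and an ER stress response element.

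**Figure D5:**
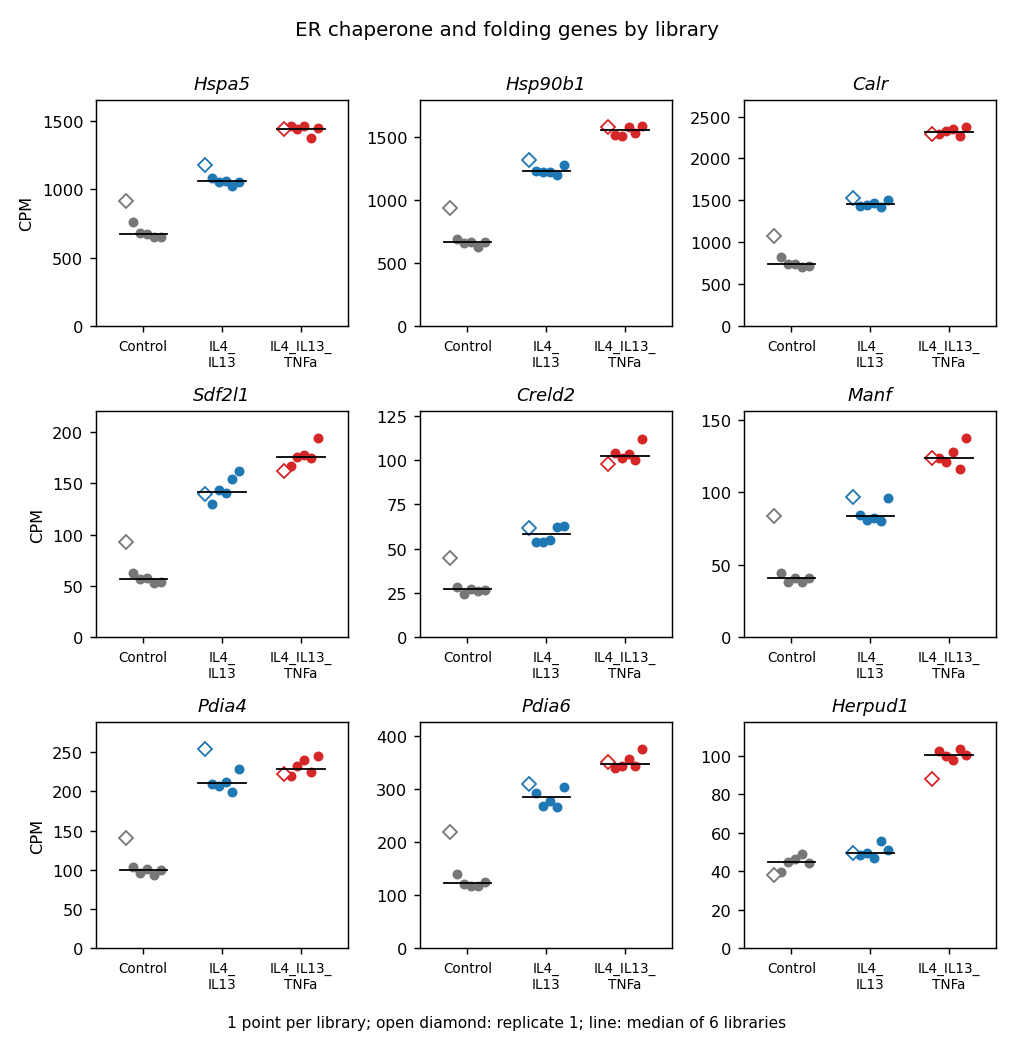
Level of 9 ER chaperone, folding and degradation genes in each library, in CPM from 0; points are libraries, open diamonds replicate 1 and lines the group median. Hspa5, Hsp90b1, Calr, Sdf2l1, Creld2 and Pdia6 rise in 2 steps with no overlap between groups, Pdia4 rises at the first step and Herpud1 mainly at the second.

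Per length, Calr, Hsp90b1, Hspa5, Pdia3 and Canx held the first 5 places of the 35 genes in each group by their means. Canx and Sdf2l1, in the sixth place, differed by less than their SD in IL4_IL13_TNFa (161.3 ± 4.59 and 158.3 ± 9.81 RPKM, SD, n = 6), as did Hsp90b1 and Hspa5 in Control (175.1 ± 28.0 and 170.8 ± 24.1 RPKM). Hspa5 and Pdia3 differed by less than their SD in Control (170.8 ± 24.1 and 160.8 ± 22.2 RPKM, SD, n = 6) and in IL4_IL13 (254.6 ± 12.4 and 253.1 ± 10.2 RPKM), and did not in IL4_IL13_TNFa (340.6 ± 7.61 and 297.8 ± 7.91 RPKM). Over the 18 libraries the genes most like Hspa5 in log2 CPM, of 8913 with a mean of at least 10 CPM, were Calr (Pearson r 0.996), Rnf128 (0.993) and Cs (0.993). Genes with a pattern like that of Atf4 included Snrnp40 (0.987) and Nans (0.979), and those most like Ddit3 were Tnfrsf1b (0.874), Plekho1 (0.869) and Phf23 (0.869). These values follow the 3 groups and describe these libraries only.

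A further 164 genes of the same pathways were listed by function, of which 158 passed the filter. With IL-4 and IL-13, 80 rose and 22 fell (median log2 fold change 0.20). With TNFa added 75 rose and 30 fell (0.17), or 45 and 53 with library totals. With all 3 cytokines 104 rose and 30 fell (0.43), or 47 fell with library totals. The counts without Control replicate 1 were 96 and 28, 82 and 34, and 106 and 33. In these fits 9081, 8727 and 10371 of 13344 genes passed, 52.2%, 50.9% and 50.2% of them higher. The counts of each list below are to be read against the shares over all genes, 29.3% higher and 29.7% lower with IL-4 and IL-13 and 30.3% and 29.3% with TNFa added. Those shares do not hold for the counts with library totals. With TNFa added that scaling called 8402 of 13177 genes, 27.5% of them higher. With all 3 cytokines it called 10058, 32.7% of them higher. Of the 20 cytosolic tRNA synthetases, which charge tRNAs and of which many are ATF4 targets, 17 rose and 1 fell with IL-4 and IL-13 (median 0.59). None of the 20 stood clear of the controls, replicate 1 included, where 12.5% of all genes lay higher without overlap. Yars rose from a mean of 36.3 to 67.5 CPM (0.89 ± 0.19, adjusted p = 0.000605) and Rars from 60.4 to 110.2 CPM (0.87 ± 0.15, adjusted p = 7.51e-05). With TNFa added 6 of the 20 synthetases rose and 2 fell (median 0.01), a share of rises near that of all genes (30.3%). Wars, the tryptophan enzyme that interferon also induces, rose by 0.52 ± 0.10 (adjusted p = 0.000159).

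Other amino acid genes were not of one direction. Of 19 other enzymes, 10 rose and 2 fell with IL-4 and IL-13, and 7 rose and 7 fell with TNFa added. Ass1, which remakes arginine from citrulline, rose with TNFa from a mean of 12.3 to 490.7 CPM (5.31 ± 0.25, adjusted p = 2.64e-12), while Pck2, a mitochondrial enzyme that ATF4 induces in other cells, fell from 75.8 to 13.3 CPM (-2.51 ± 0.10, adjusted p = 1.4e-13). Mthfd1l, of the mitochondrial one-carbon path, rose with IL-4 and IL-13 from 14.2 to 45.2 CPM (1.66 ± 0.33, adjusted p = 0.000309). Of 15 other transporters, 7 rose and 4 fell with IL-4 and IL-13. Slc7a2, the inducible arginine transporter, rose from 30.3 to 407.6 CPM (3.75 ± 0.14, adjusted p = 8.39e-14), and Slc43a2, a transporter of neutral amino acids, fell from 1011 to 392.7 CPM (-1.36 ± 0.08, adjusted p = 7.02e-11). With TNFa added 6 transporters rose and 4 fell. Slc7a11, the cystine importer that both ATF4 and NRF2 control, rose from 13.6 to 952.3 CPM (6.12 ± 0.39, adjusted p = 1.59e-10), in the cells where Phgdh and Psat1 fell.

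Of 17 other regulators, 5 rose and 4 fell with IL-4 and IL-13, and 5 rose and 6 fell with TNFa added, shares of rises near those of all genes (29.3% and 30.3%). Atf3, a stress-induced partner of ATF4, rose with IL-4 and IL-13 from a mean of 175.6 to 532.2 CPM (1.60 ± 0.11, adjusted p = 9.91e-10). Ppp1r15a, the eIF2 phosphatase subunit that ends the response, rose with TNFa from 10.8 to 21.7 CPM (1.00 ± 0.13, adjusted p = 1.87e-06). The other sestrins fell: Sesn1 by 1.52 ± 0.17 with IL-4 and IL-13 (adjusted p = 8.04e-07) and Sesn3 by 1.61 ± 0.14 with TNFa added (adjusted p = 8.32e-09).

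Among the wider ER lists, most translocation genes rose. Of 27 genes of ER translocation and signal peptide removal, 19 rose and 1 fell with IL-4 and IL-13 (median 0.34) and 20 rose and 2 fell with TNFa added (median 0.33, or 11 and 5 with library totals). Sec61b, a subunit of the ER channel, rose with TNFa from a mean of 29.9 to 64.6 CPM (1.11 ± 0.11, adjusted p = 1.08e-07), and Rpn1, of the oligosaccharyltransferase, from 309.5 to 495.9 CPM (0.68 ± 0.09, adjusted p = 2.54e-06). Of 26 other ER chaperones and folding enzymes, 13 rose and 3 fell with IL-4 and IL-13 and 11 rose and 2 fell with TNFa added (8 and 8 with library totals). Hyou1, the ER Hsp110 that works with BiP, rose with TNFa from 209.3 to 355.6 CPM (0.76 ± 0.15, adjusted p = 0.000283), and Erp29 fell from 302.4 to 205.4 CPM (-0.56 ± 0.05, adjusted p = 3.42e-09).

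Other lists held genes of ER-associated degradation and sensors. Of 20 genes of ER-associated degradation, 6 rose and 5 fell with IL-4 and IL-13, and 11 rose and 4 fell with TNFa added (6 and 7 with library totals). Edem2, which trims glycans of misfolded proteins, rose with TNFa by 0.62 ± 0.04 (adjusted p = 4.65e-10). Of 14 other sensors and factors of the unfolded protein response, 3 rose and 2 fell with IL-4 and IL-13, and 9 rose and 3 fell with TNFa added (6 and 5 with library totals). Traf2, an adaptor of both TNF receptors and IRE1, rose with TNFa from 33.1 to 63.6 CPM (0.94 ± 0.05, adjusted p = 1.85e-11), and Wfs1, an ER membrane protein that ER stress induces, from 13.6 to 28.1 CPM (1.05 ± 0.10, adjusted p = 3.02e-08). Map3k5, the kinase ASK1 downstream of IRE1 and TRAF2, fell by 0.98 ± 0.08 with IL-4 and IL-13 (adjusted p = 1.43e-08) and by 0.79 ± 0.09 with TNFa added (adjusted p = 2.2e-07).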

How the data were processed

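The 18 libraries were stranded and made from poly(A) RNA, per the labels' protocols, and were grouped by their titles. The deposited table holds raw counts per gene, whole numbers with no normalization. Tools named in the submitters' processing notes are FastQC 0.11.5, RSEM 1.3.0, featureCounts 1.5.1, STAR (2.5.2, 2.5.2b) and bcl2fastq 2.20.0.422, with the build GRCm38 (mm10). Which tool did which step, which annotation was counted and whether strand was used is not given in the sources used here. Genes overlapping on opposite strands are therefore uncertain. Besides Atf5, Ddit3 and Psph, these include Eif2ak3 (485 exon bases shared with Gm43292) and Hsp90b1 (415 with 1810014B01Rik). Manf shares 166 with 4930524O07Rik and 146 with Dcaf1. Shorter overlaps lay in Shmt2, Dnajb9, Pdia3 and Pdia6. GENCODE M21, of the same build, gave a symbol for 48434 of 48794 rows. Libraries of a group differed beyond sampling noise (chi-square over degrees of freedom at least 2.72 in each pair).

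Counts were filtered by filterByExpr (minimum count 10, leaving 13177 genes), scaled by TMM and tested with edgeR 4.0.16 (robust quasi-likelihood, all 18 libraries in 1 fit, no covariate) in R 4.3.3. Each ± of a fold change divides its absolute log2 value by the root of F. Same-numbered libraries deviated together in all 18 pairs (Pearson r 0.128 to 0.671), a pairing that comes from the data, since no label gives its reason. RPKM is CPM over merged exon length in kilobases. The scripts were tested on simulated counts first.

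All 35 genes are named. Genes of the wider lists were eligible if among the top 2 by change for a list, comparison and direction, called, and with a mean of 5 CPM or more in the higher group, with at most 30 named. The 35 genes, wider lists and markers were chosen with earlier results of these data known. The alternatives were library totals or DESeq2 size factors for scaling, no filter or a stricter one (5 CPM in 6 libraries), DESeq2 1.42.0 or limma 3.58.1 (voom) as the test, the replicate number as a block, a fit on the groups compared alone, and leaving out each library or all 3 numbered 1. At 14793404 to 20056125 counts a library, Chac1 and Pycr1 had the fewest counts of the 35 genes, down to 3 in a library. Standard errors were 0.52 to 0.59 for Chac1 and 0.35 to 0.41 for Pycr1. They were 0.47 to 0.48 for Slc7a5 and 0.45 to 0.46 for Slc7a1, which had more counts. Protein sequences were not used here, and 1 gene that the rule on likeness would name is not reported here.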

Additional observations from a re-analysis of the deposited data

Results flagged for a closer look

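For each of the 35 genes and 3 groups the library farthest from the others was compared by Dixon's criterion at 95%, 105 sets in all. Chance flags about 1 in 20 sets, and 33 were flagged here, 26 of them for Control replicate 1. In 25 of these 26 that library was the highest control and in 1, Sesn2 (32.7 CPM, the others 39.7 to 43.5), the lowest.

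Among regulators and enzymes Control replicate 1 held 183.6 CPM for Atf4, 36.0 for Atf5, 7.93 for Trib3, 3.62 for Chac1, 68.7 for Asns, 15.6 for Phgdh, 72.1 for Psat1, 17.3 for Psph, 107.4 for Shmt2, 110.4 for Mthfd2, 61.3 for Aldh18a1 and 1.56 for Pycr1. Among transporters it held 394.4 CPM for Slc3a2, 46.1 for Slc7a5 and 114.6 for Slc7a1. Among ER genes it held 933.0 CPM for Hsp90b1, 153.0 for Dnajc3, 92.9 for Sdf2l1, 83.9 for Manf, 44.6 for Creld2, 639.2 for Pdia3, 140.3 for Pdia4, 218.4 for Pdia6, 1078 for Calr and 666.4 for Canx.

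IL4_IL13 replicate 1 stood above its group for Slc3a2 (325.8 CPM) and Slc7a5 (42.8 CPM). In IL4_IL13_TNFa, replicate 6 stood above for Atf4 (182.3 CPM) and Pdia3 (982.6 CPM), replicate 5 below for Hspa5 (1378 CPM), replicate 2 below for Dnajc3 (177.2 CPM) and replicate 1 below for Herpud1 (87.9 CPM).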

How the results depend on the processing

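For IL-4 and IL-13 against Control, the count of members that fell was 3, and 5 with library totals and with the stricter filter. With TNFa added, the count that rose was 11, and 5 with library totals, and the count that fell was 14, and 9 with no filter. With all 3 cytokines against Control the count that fell was 8, and 4 with no filter, 5 with limma voom and 5 to 8 with 1 library left out (5 without Control replicate 1). Of the pathway genes, library totals gave 45 higher (75 with TMM) and 53 lower (30) with TNFa added, and 47 lower (30) with all 3 cytokines. Over all genes that scaling left 27.5% of called genes higher with TNFa added (50.9% with TMM) and 32.7% with all 3 cytokines (49.4%). Some differences turned sign and passed the threshold: with all 3 cytokines Chac1 ran from -0.51 to 0.90 with 1 library left out (0.90 without Control replicate 1) and was 0.96 without the 3 libraries numbered 1, Aldh18a1 ran from -0.15 to 0.49 (0.49 without Control replicate 1) and was 0.51, and Xbp1 was -0.22 with library totals, as it was -0.19 with TNFa added. The replicate block gave 26 higher and 4 lower with IL-4 and IL-13, 12 and 14 with TNFa added and 22 and 7 with all 3 cytokines. Over all genes it called 8632, 8516 and 10185 of 13177, 51%, 50.9% and 49.5% of them higher. The block changed the calls given beside Ddit4, Psph, Slc7a5, Canx, Asns, Shmt2, Slc7a1 and Trib3 and no other call of the 35 genes. The cause of these changes was not tested. With no filter p-values were adjusted over 31497 genes, and the calls for Aldh18a1, Chac1 and Slc7a1 with IL-4 and IL-13 and for Aldh18a1, Asns, Chac1, Eif2ak3, Pdia6, Sdf2l1 and Shmt2 with TNFa added were lost, as were those for Eif2ak3, Mthfd2, Phgdh, Psph and Pycr1 with all 3 cytokines. With stricter filtering 10185 genes were left, without Chac1, Ddit4 and Pycr1. The fit on the groups compared alone added calls for Atf4 and Canx with TNFa added. It lost those for Ddit3, Chac1 and Aldh18a1 with IL-4 and IL-13 and for Psph with all 3 cytokines. Limma voom added calls for Psph and Slc7a5 with IL-4 and IL-13. With all 3 cytokines it added Trib3, Asns, Slc7a5 and Slc7a1 and lost Phgdh, Psph and Pycr1.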
